A study of Mus musculus with 3 samples.

Results

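The genes described here encode 9 liver enzymes that break down amino acids: Tat, Hpd, Hgd and Fah of the tyrosine route, Tdo2 of the tryptophan route, Sds and Sdsl of serine and threonine breakdown, Hal of the histidine route, and Got1, the cytosolic aspartate aminotransferase. They were taken by symbol from the deposited tables, in which all 9 symbols were found among 41799 listed genes. All 9 had a mean of at least 1 CPM (counts relative to the scaled library total) and so were among the 13153 genes tested.

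The series measured total liver RNA by sequencing in male C57BL/6 mice aged 14 weeks. There were 3 libraries, 1 a group: a regular chow group, a group fed a high-fat diet (HFD), and one fed HFD that also received DfCS-Ib by mouth at 40 mg/kg in distilled water. DfCS-Ib is known here by its code name, and the design text calls the treatment a sulfated oligosaccharide. The labels name no treatment in the chow and HFD groups, and food and water were freely available while the experiment ran. Each group had 8 mice, but the sources used here do not say how many mice gave RNA to a library, nor the hour of tissue collection or whether the mice were fed or fasted then.

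With 1 library per group there is no replicate check, no p-value was computed, and each difference describes 3 libraries and not 3 conditions. Ranges in parentheses are 95% exact intervals and cover counting error only. Library totals ran from 10969699 to 12279537 counts. The tissue label was checked against a marker list, and 9 matched hepatocyte markers all had counts. Their summed level was 160905, 125905 and 140005 CPM in chow, HFD and DfCS-Ib, in that order. Alb gave 112771, 85030 and 93946 CPM of these sums. Of the 9 markers, 5 were lower and 4 higher in the HFD library than in chow. Hpd and Hgd are also made in kidney, and of 6 kidney tubule markers 4, 4 and 3 were listed at 0 in the same order. In bulk tissue, fewer cells of a type and less RNA per cell cannot be told apart.

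The liver is the main site where amino acids from food and muscle protein are stripped of nitrogen, and their carbon goes to glucose, ketone bodies or energy. The enzyme that opens a route usually limits its flow, and several of these opening enzymes (Tat, Tdo2 and Sds among them) are classic targets of glucocorticoids, glucagon and fasting. Hal and Sds are also known as genes of periportal hepatocytes, the cells nearest the incoming portal blood.

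Of the 9 genes, 3 were lower by 2-fold or more in the HFD library than in chow and had a RefSeq promoter entry: Tat, Tdo2 and Got1. Fah was the only gene of the 9 that was not lower in the HFD library than in chow. The promoter table held 7 of the 9 genes, with no entry for Sds and Sdsl. The 250 bases before the annotated start of these 4 genes are shown 5′ to 3′ on the strand of the gene, from RefSeq on build GRCm38.p6, so that the windows of the 3 low genes can be read against that of Fah. They lie at chr8:109990186-109990435 (plus strand) for Tat, chr3:81975729-81975978 (minus) for Tdo2, chr19:43524606-43524855 (minus) for Got1 and chr7:84605943-84606192 (minus) for Fah. Capitals mark matches on either strand to AGGTCA, the nuclear receptor core motif, or TATAAA, the letters of a TATA box. They are matches of letters only, at any distance from the start.
Tat: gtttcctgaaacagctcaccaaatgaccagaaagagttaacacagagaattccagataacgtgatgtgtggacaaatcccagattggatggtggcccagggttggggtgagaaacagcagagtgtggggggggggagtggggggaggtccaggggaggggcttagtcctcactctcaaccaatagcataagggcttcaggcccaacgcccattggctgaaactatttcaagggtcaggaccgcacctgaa
Tdo2: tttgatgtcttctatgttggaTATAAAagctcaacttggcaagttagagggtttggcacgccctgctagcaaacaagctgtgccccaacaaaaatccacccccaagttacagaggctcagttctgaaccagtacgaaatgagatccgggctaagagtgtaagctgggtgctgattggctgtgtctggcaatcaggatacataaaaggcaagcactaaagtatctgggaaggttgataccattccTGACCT
Got1: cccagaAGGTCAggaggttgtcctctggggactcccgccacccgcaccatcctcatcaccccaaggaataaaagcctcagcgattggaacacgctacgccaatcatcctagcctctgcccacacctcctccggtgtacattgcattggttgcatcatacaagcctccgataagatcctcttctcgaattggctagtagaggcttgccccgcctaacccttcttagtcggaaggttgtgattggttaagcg
Fah: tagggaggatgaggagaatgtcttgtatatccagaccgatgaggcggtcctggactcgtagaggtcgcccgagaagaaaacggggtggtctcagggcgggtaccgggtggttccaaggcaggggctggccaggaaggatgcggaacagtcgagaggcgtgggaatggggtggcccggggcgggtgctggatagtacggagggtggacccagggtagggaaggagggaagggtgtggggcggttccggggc

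In these windows, 9 short motifs were searched on both strands. The glucocorticoid receptor core was TGTTCT, the forkhead core was TGTTTAC, and the C/EBP palindrome was TTGCGCAA. For cAMP response the full element was TGACGTCA and its first part, which overlaps it, was TGACG. The HNF1 core was GTTAAT and the E-box was CACGTG, beside the AGGTCA and TATAAA already named. AGGTCA was found for 3 of the 7 genes, Hgd, Tdo2 and Got1, against 14.0% of 32851 promoter windows of the same length. TATAAA was found for Hgd, Tdo2 and Hal, against 12.4%. It lay 229 bases before the start in Tdo2. On the opposite strand it lay 139 bases before the start in Hgd and 28 in Hal. The other 7 motifs occurred in 16.1% (TGTTCT), 3.17% (TGTTTAC), 0.164% (TTGCGCAA), 1.55% (TGACGTCA), 17.8% (TGACG), 6.43% (GTTAAT) and 6.02% (CACGTG) of all windows. They had no match in the 7 windows here, which says only that these letters are not in this stretch. Tat and Fah had no match to any of the 9. The windows differed in base composition, with 53.6% G and C for Tat, 46.4% for Tdo2, 54.4% for Got1 and 64.4% for Fah, beside a median of 52.4% over all windows. No motif searched was common to the 3 low genes.

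HFD against chow is the comparison of diets. Got1, Sdsl, Sds, Tat and Tdo2 were lower by 2-fold or more in the HFD library, Hpd, Hal and Hgd were lower by less, and Fah was slightly higher. That is 5 of 9 genes lower by the 2-fold rule, where 2.27% of the 13153 tested genes were, and 0 of 9 higher, where 3.47% were. The 9 genes had a median log2 ratio of -1.13, beside 0.02 over all tested genes. Abundant genes were called more often, and of the 1321 genes averaging 100 CPM or more, 4.92% were lower by 2-fold. At 1.5-fold, 7 of 9 were lower, against 7.72% of tested genes. The HFD library was the lowest of the 3 for 8 of 9 genes, a position it held for 36.4% of tested genes, and for Tat, Sds and Got1 it lay at least 2-fold below both other libraries, as it did for 1.38% of tested genes. For Hal the HFD library was lowest only within counting error.

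**Figure D1:**
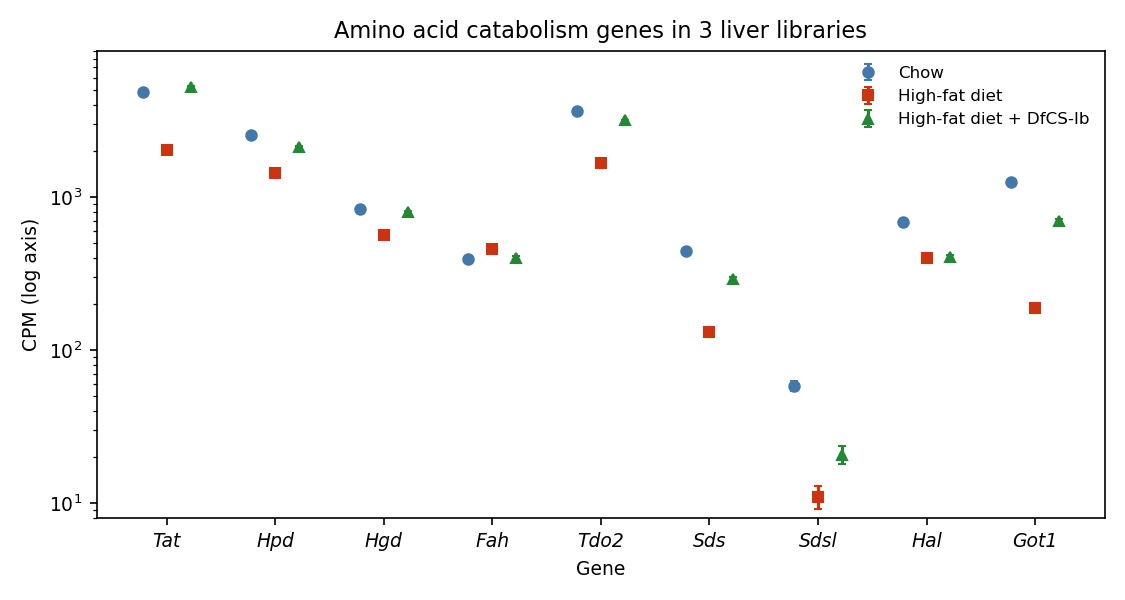
Scaled level (CPM, log axis) of each of the 9 genes in the chow, HFD and HFD plus DfCS-Ib libraries, 1 library per group; bars are 95% exact Poisson intervals of the counts and are mostly smaller than the points. The HFD square is the lowest point for all genes but Fah, and for Hal it lies close to the DfCS-Ib triangle.

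The 9 genes took 1.44% (1.43 to 1.44) of all counts in the chow library, 0.721% (0.717 to 0.726) in the HFD library and 1.28% (1.28 to 1.29) in the DfCS-Ib library. Tat and Tdo2 made up much of this. Without them the other 7 genes summed to 6201 CPM in chow, 3186 CPM in the HFD library and 4729 CPM in the DfCS-Ib library, so the lower sum in the HFD library did not rest on those 2 genes alone.

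The comparison of DfCS-Ib with the HFD alone addressed the treatment on the same diet. Got1, Tat and Sds were at least 2-fold higher with DfCS-Ib. They were 3 of 9 genes, where 2.46% of tested genes (5.53% of the abundant ones) were higher by as much, and 0 of 9 were lower, where 2.02% were. The median log2 ratio of the 9 was 0.87, beside -0.01 over all tested genes. Sdsl and Tdo2 lay just under 2-fold, so that 5 of 9 were higher at 1.5-fold, against 7.62% of tested genes. This comparison and the one before it share the HFD library, so a low count there moves both.

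Against chow, the DfCS-Ib library was lower by at least 2-fold for 1 of 9 genes, Sdsl, where 0.433% of tested genes were, and higher for 0 of 9, where 1.62% were. The median was -0.26 beside 0.00 over all tested genes. Tat, Fah and Hgd differed from chow by 1.08-fold or less. Got1, Hal, Sds and Sdsl were lower than chow by at least 1.5-fold, which 3.06% of tested genes were. The tyrosine and tryptophan genes were thus within 1.20-fold of chow in the DfCS-Ib library, and the serine, histidine and aspartate genes were further below it, a division made after the values were seen.

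**Figure D2:**
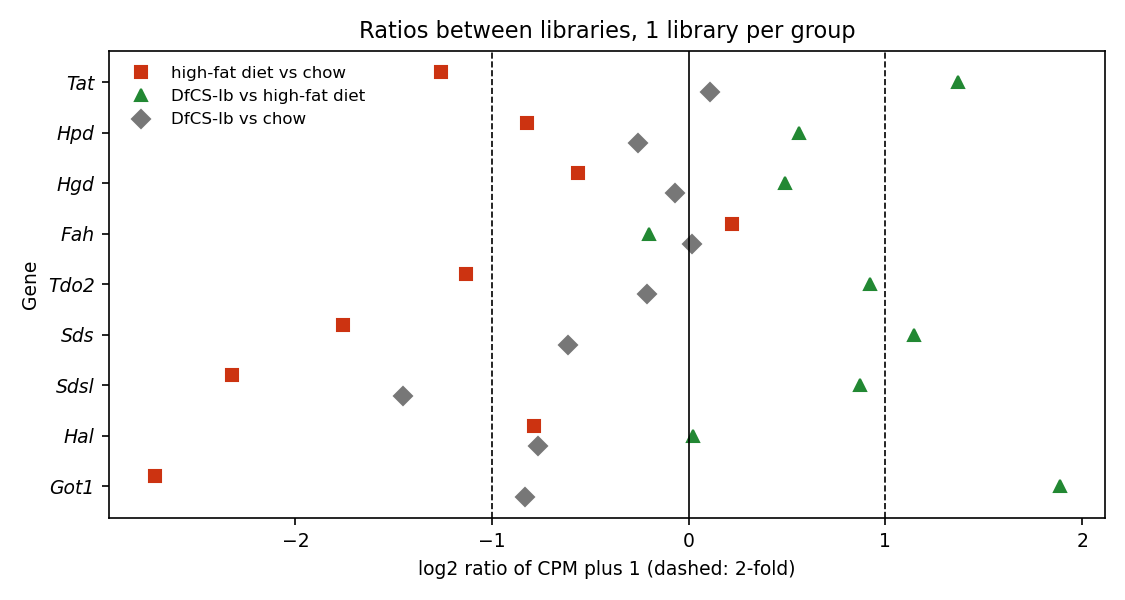
Log2 ratio of CPM plus 1 for each gene in the HFD against chow (squares), DfCS-Ib against HFD (triangles) and DfCS-Ib against chow (diamonds) comparisons; dashed lines mark 2-fold and the solid line equality. Squares lie left of 0 for 8 of 9 genes and furthest left for Got1 at -2.72, while the diamonds of the tyrosine genes lie near 0 and that of Sdsl at -1.45.

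Tyrosine breakdown starts with Tat, tyrosine aminotransferase, which moves the amino group to 2-oxoglutarate and is the rate-limiting enzyme of the route. Tat lies on chromosome 8, 109990436 to 109999804 of mm10, with 12 exons, and its promoter stands above. It had 52419 counts in chow, 26178 in the HFD library and 56328 with DfCS-Ib, or 4871, 2034 and 5250.3 CPM. The HFD library alone was low, and the DfCS-Ib library was the highest of the 3. Tat was 2.39-fold (2.36 to 2.43) lower in the HFD library than in chow and 2.58-fold (2.54 to 2.62) higher with DfCS-Ib than in the HFD library. Between DfCS-Ib and chow it differed by 1.08-fold (1.07 to 1.09). Ranked by CPM among all listed genes, Tat stood at place 25 in chow, 50 in the HFD library and 23 with DfCS-Ib.

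Hpd encodes 4-hydroxyphenylpyruvate dioxygenase, which turns the product of Tat into homogentisate, and is the target of the drug nitisinone. The gene lies on chromosome 5, 123171807 to 123182686, and has 14 exons. Its levels were 2541 CPM in chow, 1439 CPM in the HFD library and 2126 CPM with DfCS-Ib. Hpd was 1.77-fold (1.73 to 1.80) lower in the HFD library than in chow and 1.48-fold (1.45 to 1.51) higher with DfCS-Ib, which remained 1.20-fold (1.17 to 1.22) below chow.

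Hgd, homogentisate dioxygenase, opens the aromatic ring and is the gene lost in alkaptonuria. It lies on chromosome 16, 37580153 to 37632026. Its levels were 831 CPM in chow, 562 CPM in the HFD library and 790.1 CPM with DfCS-Ib, so the chow and DfCS-Ib libraries were close. The HFD library was 1.48-fold (1.43 to 1.52) lower than chow, and DfCS-Ib was 1.41-fold (1.36 to 1.45) higher than the HFD library.

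Fah, fumarylacetoacetate hydrolase, is the last enzyme of the route, and its loss lets toxic intermediates build up in hepatocytes. It lies on chromosome 7, 84585159 to 84605942, with 14 exons. Fah had 392 CPM in chow, 456 CPM in the HFD library and 396 CPM with DfCS-Ib. It was the only one of the 9 genes with its highest value in the HFD library, by 1.16-fold (1.12 to 1.21) over chow and 1.15-fold (1.11 to 1.20) over DfCS-Ib. The chow and DfCS-Ib libraries did not differ beyond counting error for Fah, with a ratio of 1.01 (0.970 to 1.06).

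Read in the order of the route, the log2 ratio of the HFD to the chow library was -1.26 for Tat, -0.82 for Hpd, -0.56 for Hgd and 0.22 for Fah. Gstz1, which isomerises maleylacetoacetate between the steps of Hgd and Fah, had 0.33. Of these 5 steps the opening one was thus the lowest, and the closing ones were on the other side of 0. This order was noticed in the data and has no test. The ratio of Tat to Fah on RPKM, in which counts are divided by gene length and library total, was 8.29 in chow, 2.98 in the HFD library and 8.83 with DfCS-Ib.

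**Figure D3:**
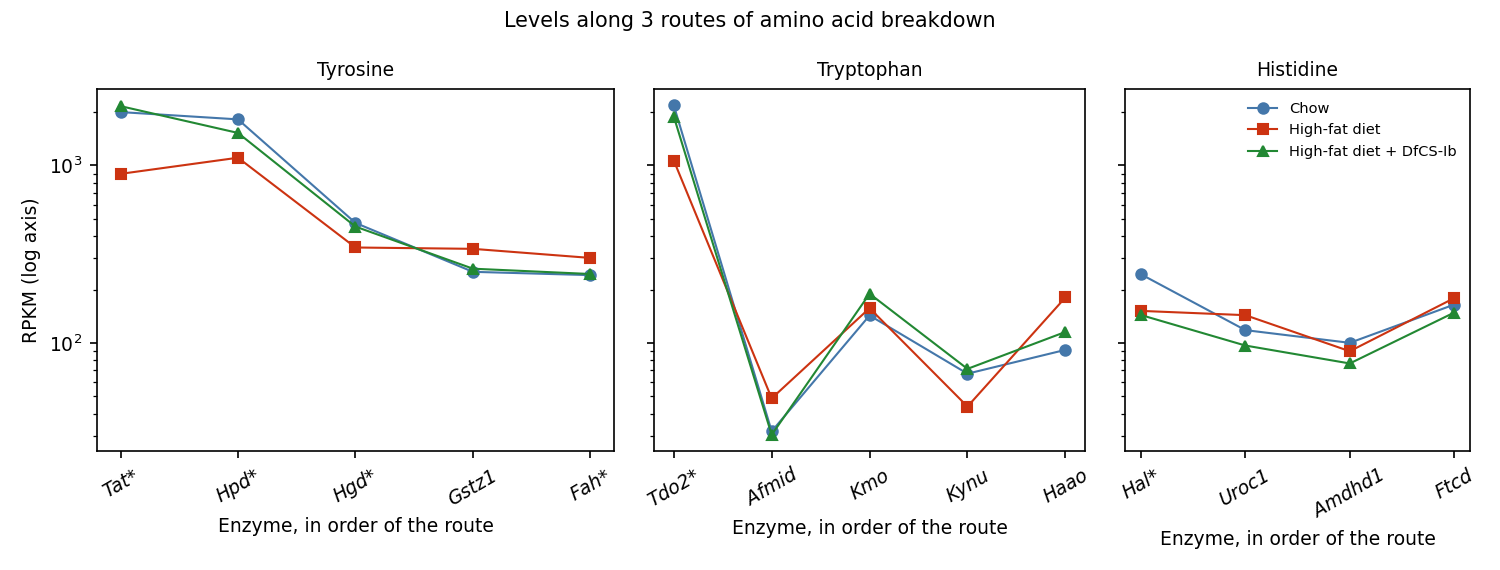
RPKM (log axis) of the enzymes of the tyrosine, tryptophan and histidine routes in route order, with 1 line per library; asterisks mark the genes of the set. In the tyrosine panel the HFD line lies below the others from Tat to Hgd and above them at Gstz1 and Fah.

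Tdo2, tryptophan 2,3-dioxygenase, is a heme enzyme nearly restricted to liver that commits tryptophan to the kynurenine route, which leads to NAD. It lies on chromosome 3, 81958412 to 81975728, with 12 exons, and its promoter stands above. Tdo2 had 3651 CPM in chow, 1664 CPM in the HFD library and 3152 CPM with DfCS-Ib. The HFD library was low, and the DfCS-Ib library lay nearer to chow. It was 2.19-fold (2.16 to 2.23) lower in the HFD library than in chow and 1.89-fold (1.86 to 1.93) higher with DfCS-Ib, which stayed 1.16-fold (1.14 to 1.18) below chow.

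The later enzymes of the kynurenine route lay on both sides of 0. Their log2 ratios of HFD to chow were 0.51 for Afmid, which hydrolyses formylkynurenine, 0.03 for the hydroxylase Kmo, -0.72 for kynureninase, Kynu, and 0.88 for Haao, the dioxygenase that forms the quinolinate precursor. Afmid, Kynu and Haao were named after their values were seen, to complete the route. Of 13 tested genes in the list of other tryptophan genes, 2 were higher by 2-fold or more in the HFD library and 1 lower, with a median of 0.17. Acmsd, which diverts the route away from NAD, was the lower one, with 70.3, 16.6 and 59.9 CPM in chow, HFD and DfCS-Ib, 4.24-fold (3.64 to 4.97) lower in the HFD library than in chow. The 2 higher were Ccbl1, a kynurenine aminotransferase, by 2.31-fold (2.11 to 2.54), and Ido2, a relative of Ido1 that also oxidises tryptophan, by 2.04-fold (1.83 to 2.27).

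Sds, serine dehydratase, turns serine to pyruvate and threonine to 2-oxobutyrate, and feeds gluconeogenesis. It lies on chromosome 5, 120476547 to 120484935. Sds had 4781, 1680 and 3115 counts in chow, HFD and DfCS-Ib, or 444, 131 and 290.3 CPM. The HFD library was lowest and the DfCS-Ib library lay between the others. Sds was 3.40-fold (3.22 to 3.60) lower in the HFD library than in chow, 2.22-fold (2.10 to 2.36) higher with DfCS-Ib than without, and 1.53-fold (1.46 to 1.60) lower with DfCS-Ib than in chow.

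Plbd2, on the opposite strand, overlaps the deposited Sds model, and since no strand setting is stated, reads of the overlap cannot be told apart. Plbd2 had 888, 770 and 843 counts. In the GENCODE M21 transcripts, 358 of 1478 windows of 50 bases in Sds (24.2%) also occur in transcripts of Plbd2 or Gm15690. GENCODE ends Sds at 120483932 and the deposited model at 120484935, so the share in the counted model can differ. The other 8 genes overlapped no listed gene, and at most 0.610% of their windows, in Hal, were shared with any other gene.

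Sdsl, a relative of Sds, lies beside it on the opposite strand (chromosome 5, 120458193 to 120472891), with 3655 bases between the 2 genes. Their transcripts have at most 13 bases in a row in common, far below the 50-base windows used above. Sdsl was the least abundant of the 9, with 628, 140 and 222 counts, or 58.4 (53.9 to 63.1), 10.9 (9.15 to 12.8) and 20.7 (18.1 to 23.6) CPM. It was 5.36-fold (4.46 to 6.49) lower in the HFD library than in chow. DfCS-Ib was 1.90-fold (1.53 to 2.37) higher than the HFD library and 2.82-fold (2.42 to 3.30) lower than chow. The interval for the first of these reaches past 2-fold, so its side of the 2-fold line was not resolved at this depth. On RPKM, Sds exceeded Sdsl 4.85-fold in chow, 7.64-fold in the HFD library and 8.93-fold with DfCS-Ib.

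Other serine, glycine and threonine genes were within 2-fold throughout. Of 10 tested, 0 were at least 2-fold higher or lower in any of the 3 comparisons, and the median log2 ratio of HFD to chow was 0.45, ranging from -0.31 to 0.82. Agxt, the peroxisomal enzyme that removes glyoxylate and uses serine and alanine, had 278, 224 and 288 CPM. Shmt2, the mitochondrial enzyme that links serine to glycine, had 123, 175 and 138 CPM.

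Hal, histidine ammonia-lyase, removes the amino group of histidine to give urocanate. It lies on chromosome 10, 93488768 to 93516743, with 20 exons. Hal had 7413, 5133 and 4345 counts in chow, HFD and DfCS-Ib, or 689, 399 and 405 CPM. Only the chow library was high. Hal was 1.73-fold (1.67 to 1.79) lower in the HFD library than in chow and 1.70-fold (1.64 to 1.77) lower with DfCS-Ib than in chow. The DfCS-Ib and HFD libraries did not differ beyond counting error, with a ratio of 1.02 (0.975 to 1.06), and the direction of that ratio turned with the scaling. The later histidine enzymes Uroc1, Amdhd1 and Ftcd had log2 ratios of 0.18, -0.26 and 0.02 between HFD and chow. Hdc, which makes histamine and sits outside the route, was 3.27-fold (2.63 to 4.08) lower in the HFD library than in chow.

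Got1, cytosolic aspartate aminotransferase, exchanges nitrogen between aspartate and glutamate, serves the malate-aspartate shuttle and gluconeogenesis, and is the enzyme measured clinically as AST. It lies on chromosome 19, 43499752 to 43524605, with 9 exons, and its promoter stands above. Got1 had 13412 counts in chow, 2430 in the HFD library and 7513 with DfCS-Ib, or 1246, 189 and 700.3 CPM. The 3 libraries were well apart, with the HFD library lowest. It had the largest ratios of the 9 genes in the HFD comparisons: 6.60-fold (6.32 to 6.89) lower than chow, and 3.71-fold (3.54 to 3.88) higher with DfCS-Ib than without. DfCS-Ib remained 1.78-fold (1.73 to 1.83) below chow. By CPM, Got1 stood at place 90 of all listed genes in chow, 676 in the HFD library and 173 with DfCS-Ib.

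Among 10 tested aminotransferase and malate-aspartate shuttle genes other than Got1, 2 were lower by 2-fold or more in the HFD library than in chow and 0 higher, with a median log2 ratio of -0.20. Oat, ornithine aminotransferase, had 2057, 827 and 1821 CPM and was 2.49-fold (2.43 to 2.55) lower in the HFD library. Gpt2, the mitochondrial alanine aminotransferase, had 867, 388 and 689 CPM and was 2.23-fold (2.16 to 2.31) lower. The shuttle enzyme Mdh1 had 653, 634 and 592 CPM, and Glud1, glutamate dehydrogenase, had 726, 950.4 and 820.4 CPM. In the DfCS-Ib library Oat was 2.20-fold (2.15 to 2.26) higher than in the HFD library.

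On the RPKM scale, which allows levels to be compared between genes, the 9 genes spanned 36.2 (Sdsl) to 2179 (Tdo2) in chow. The order in chow was Tdo2, Tat, Hpd, Got1, Hgd, Hal, Fah, Sds and Sdsl, and Hal (244) and Fah (241) did not differ beyond counting error. In the HFD library Hpd led with 1106, followed by Tdo2 (1066), Tat (897), Hgd (345), Fah (301), Hal (152), Got1 (96.2), Sds (55.4) and Sdsl (7.25). Got1 thus moved from above Hgd, Hal and Fah in chow to below all of them. With DfCS-Ib the order was Tat (2160.2), Tdo2 (1886), Hpd (1525), Hgd (452), Got1 (333), Fah (245), Hal (144), Sds (115) and Sdsl (12.9). All neighbours in these last 2 orders had intervals that did not overlap.

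Other routes of amino acid breakdown were compared from lists. Branched-chain genes showed no change of 2-fold: of 21 tested, 0 were higher and 0 lower by as much in any of the 3 comparisons, with a median log2 ratio of 0.15 between HFD and chow and a range of -0.57 to 0.53. In the list of lysine, proline and sulfur amino acids, 2 of 13 were lower by 2-fold or more in the HFD library and 0 higher (median 0.05). The 2 were Aass, which opens lysine breakdown in mitochondria, with 1411.5, 308 and 684 CPM and 4.58-fold (4.43 to 4.75) lower, and Cth, cystathionine gamma-lyase, with 2055, 477 and 1052 CPM and 4.31-fold (4.19 to 4.44) lower. Cdo1, cysteine dioxygenase, had 2246, 2033 and 2069 CPM. Of the 6 tested phenylalanine and tyrosine genes outside the 9, 0 were 2-fold apart in any comparison, and the median of HFD to chow was 0.51. In the same comparison the 5 other histidine genes had a median of 0.02, with 1 at least 2-fold lower, Hdc. In DfCS-Ib against the HFD library, the medians of the lists of other breakdown genes lay between -0.37 (serine, glycine and threonine) and -0.06 (aminotransferases and shuttle), below that of the 9 genes at 0.87. Single genes of these lists were nevertheless higher by 2-fold or more: Acmsd (3.62-fold), Aass (2.22-fold), Cth (2.21-fold) and Oat (2.20-fold). Ethe1 was lower by as much.

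**Figure D4:**
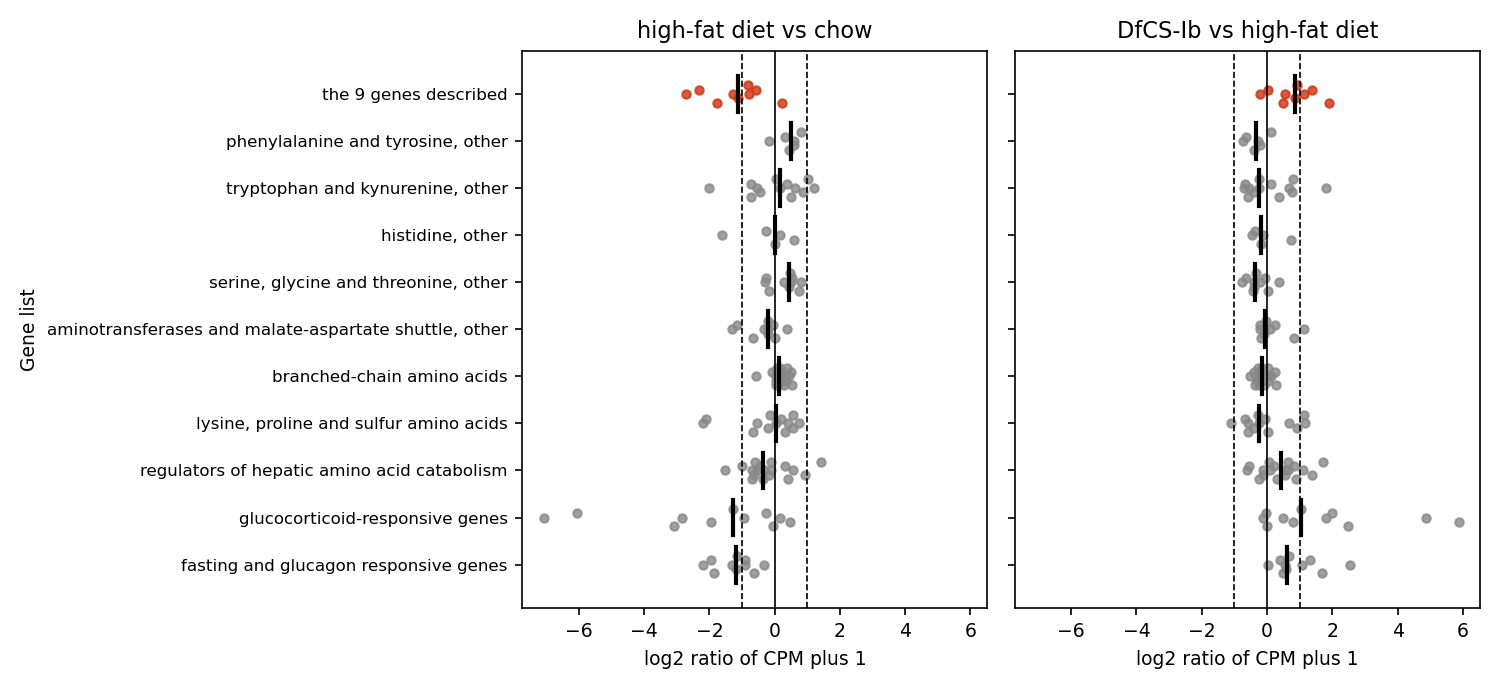
Log2 ratio of CPM plus 1 for each tested gene of the 9-gene set (red) and of the compared lists (grey), for the HFD against chow (left) and DfCS-Ib against the HFD (right); thick bars are list medians and dashed lines 2-fold. The 9 genes have medians of -1.13 and 0.87, and the branched-chain genes stay inside the dashed lines in both panels.

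Genes known to control these enzymes were also read. Nr3c1, the glucocorticoid receptor, had 88.9, 131 and 111 CPM in chow, HFD and DfCS-Ib, in that order. Klf15, a fasting-induced factor that activates amino acid breakdown genes, had 314, 204 and 318 CPM, and Hnf4a, a master factor of hepatocytes, had 1319, 812 and 1186 CPM. Of 18 tested regulators, 2 were lower by 2-fold or more in the HFD library than in chow and 1 higher (median log2 ratio -0.35). The lower ones were Ppargc1a, a coactivator of gluconeogenesis, by 3.03-fold (2.49 to 3.70), and Foxo1, an insulin-restrained factor, by 2.03-fold (1.82 to 2.28). Foxa2, a forkhead factor of liver genes, was higher by 2.80-fold (2.34 to 3.37). With DfCS-Ib, 3 were higher by 2-fold or more than in the HFD library: Cebpb, a factor of the acute phase and of fasting, by 3.33-fold (3.06 to 3.63), Ppargc1a by 2.75-fold (2.25 to 3.37) and Ppara by 2.15-fold (2.06 to 2.24).

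Hormone-responsive genes were read from lists as well. Of 11 tested glucocorticoid-responsive genes, 6 were lower by 2-fold or more in the HFD library than in chow and 0 higher (median -1.29). With DfCS-Ib, 6 were higher by 2-fold or more than without it. Over all tested genes, 2.27% were lower in HFD and 2.46% higher with DfCS-Ib by as much. Between HFD and chow 9 of the 11 lay below 0 and 2 above, up to 0.46. The 2 other listed genes had 0 counts in all 3 libraries, at positions off the main chromosomes. Zbtb16, a glucocorticoid-induced zinc finger gene, had 82.9, 20.6 and 118 CPM, and the clock gene Per1 had 38.8, 15.3 and 27.6 CPM. Of 10 tested fasting and glucagon responsive genes, 6 were lower by 2-fold or more in the HFD library and 0 higher (median -1.17), and 4 were higher with DfCS-Ib. Pck1, the gluconeogenic enzyme, had 4582, 2054 and 5075.5 CPM, and the insulin-repressed Igfbp1 had 578, 126 and 410 CPM. The part of hormone or feeding state in the values of the 9 genes was not tested.

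Of 13 periportal markers, with Sds and Hal left out, 7 were lower by 2-fold or more in the HFD library than in chow. The share of all tested genes lower by as much was 2.27%. Of the 13, 0 were higher by 2-fold or more, while 9 lay below 0 and 4 above, up to 0.30. The median was -1.04, and the sums were 16063, 8405 and 13746.5 CPM. Pck1 and Cps1 stand in this list and in that of fasting genes, and Pck1 gave 4582, 2054 and 5075.5 CPM of these sums. The Cps1 row lies on a scaffold off the main chromosomes and had 112, 48.4 and 78.0 CPM. Whether it holds all reads of that gene cannot be told. Pericentral markers had 4 of 12 higher by 2-fold, against 3.47% of tested genes, and 1 lower, Oat (median 0.54). They summed to 9968, 10715 and 13156 CPM, of which Cyp2e1 gave 6278, 6671 and 8796 CPM. In DfCS-Ib against HFD the median of the 12 was 0.09. The 12 macrophage and Kupffer cell markers summed to 405, 512 and 865 CPM. All 12 were at least 1.5-fold higher with DfCS-Ib than in chow, as were 5.69% of tested genes. The erythroid markers summed to 90.1, 150 and 125 CPM. Of the 5 tested, 3 lay below 0 and 2 above in HFD against chow (median -0.10), so the sums do not stand for most of them. The part of zonation or cell makeup in the values of the 9 genes was not tested.

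The genes nearest to each member in pattern were found by Euclidean distance over the 3 mean-centred log2 values, among 7357 protein-coding genes averaging 10 CPM or more. Each distance rests on 3 libraries and is a description. Tat lay nearest to Camk2b, Slc27a1 and Pck1 (distances 0.04, 0.04 and 0.07), with 26 genes within 0.2. For Tdo2 they were Man2a1, Clip1 and Cyp8b1, with 74 genes within 0.2, and for Sds they were Apoa4, Tmed5 and Agpat9, with 10. Sdsl and Got1 had fewer close genes. Sdsl lay nearest to Fmo2, Socs2 and Sik1, with 2 within 0.2, and Got1 to Cyp17a1, Lepr and Abhd2, with 4. The added 1 CPM shrinks the ratios of genes with low levels. Without it, Lepr was 8.25-fold (6.41 to 10.8) lower in the HFD library than in chow, and Got1 6.60-fold.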

How the data were processed

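Per the file headers, the authors deposited for each library a raw read count per gene and its RPKM, beside the position and length of the gene. The deposited RPKM equalled the count over length and file total, with a largest deviation of 0.000506% above 100 counts. The submitters' processing notes name TopHat2 and mm10. The sources used here do not give the counting tool, the strand setting or the treatment of reads with several placements.

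TMM factors were 0.976, 1.05 and 0.978 for chow, HFD and DfCS-Ib, and CPM was computed with them (edgeR 4.0.16, R 4.3.3). Total counts of 11028671, 12279537 and 10969699 set the depth, and 3 counts, the limit for a gene at 0, are 0.279, 0.233 and 0.280 CPM. Log2 ratios were taken on CPM plus 1, over 13153 genes averaging 1 CPM or more. Folds are ratios of CPM, with Clopper-Pearson intervals from the binomial split of the counts (scipy 1.17.1). A call is a ratio of at least 2-fold. With 1 library per group no test was possible. The ratio and interval code was checked on simulated counts.

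The 9 genes and all lists were chosen with earlier results of these data known, so no list is independent evidence. All 9 are named. Of each list of breakdown genes, those 2-fold apart in any comparison (up to 6) and the 3 with the highest mean RPKM could be named. Of the lists of regulators and hormone-responsive genes, those 2-fold apart (up to 6), Nr3c1, Klf15 and Hnf4a could be named. Marker lists of hepatocyte zones and of other liver, blood and kidney cells were summed, and 228 of 230 list entries matched. A further gene is not reported here. Exons and transcripts come from GENCODE M21 on GRCm38, the build that mm10 names. Alternatives covered the scaling (no TMM factors, DESeq2 1.42.0 size factors, totals without the 50 most abundant genes), RPKM, pseudocounts, filters and the fold threshold.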

Additional observations from a re-analysis of the deposited data

How the results depend on the processing

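The counts of the 9 genes past 2-fold were the same under the 8 alternatives of scaling, unit, pseudocount and filter. With a 1.5-fold threshold 5 genes were higher in the DfCS-Ib than in the HFD library, and 4 were lower in DfCS-Ib than in chow. The median log2 ratio of HFD to chow was -1.03 with total counts and no TMM factors, and -1.03 with the authors' RPKM. That of DfCS-Ib to chow was -0.29 with the 50 most abundant genes left out of the totals. Without TMM factors the median of all tested genes moved to 0.11 for HFD to chow and -0.10 for DfCS-Ib to HFD. Of 216 values of single genes under these alternatives, 0 changed side of 2-fold and 4 changed sign: Hal for DfCS-Ib to HFD at -0.08 with no TMM factors, -0.01 with the 50 genes left out and -0.08 with RPKM, and Fah for DfCS-Ib to chow at -0.02 with the 50 genes left out. Over all tested genes, 755 were 2-fold apart between HFD and chow, and 394 with a pseudocount of 5 CPM, 446 with a mean of at least 10 CPM, and 2385 at 1.5-fold. For DfCS-Ib to HFD they were 590, 294, 343 and 1944 in the same order. For DfCS-Ib to chow they were 270, 103, 135 and 1150, and 156 with RPKM. No paired analysis was possible because each group had 1 library. Depth limited the ratio of Sdsl most, with 140 counts in the HFD library, and the intervals hold no animal-to-animal spread.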

Other observations

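Markers of other cells that the tissue could hold were summed as well. The levels in chow, HFD and DfCS-Ib were 4.09, 4.20 and 5.31 CPM for T and NK cells, 1.12, 3.19 and 1.40 CPM for B cells and 2.69, 3.34 and 4.85 CPM for neutrophils. They were 290.5, 278 and 323 CPM for endothelium, 135, 138 and 172 CPM for stellate cells and 41.6, 53.9 and 40.8 CPM for cholangiocytes. Of the 7 stellate markers, 4 lay below 0 and 3 above in DfCS-Ib against HFD (median -0.02). Of the 4 tested cholangiocyte markers, 2 lay below 0 and 2 above in HFD against chow. In these comparisons the sums do not stand for most of the markers.

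In the list of lysine, proline and sulfur amino acids, Ethe1, a mitochondrial enzyme of sulfide removal, went the other way from Cth. It had 42.4, 62.9 and 28.7 CPM in the same order, and was 2.19-fold (1.92 to 2.51) lower with DfCS-Ib than in the HFD library. Asns, asparagine synthetase, had 11.9, 2.56 and 6.43 CPM, and Psph, the only tested gene of serine synthesis, had 3.81, 6.45 and 6.06 CPM.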
